A study of Glycine max with 13 samples.

Results

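ARF29 and ARF39 are maize auxin response factors (ARFs) whose binding to soybean DNA was measured by DNA affinity purification sequencing (DAP-seq). In this assay a tagged protein made outside the cell is incubated with fragmented, naked genomic DNA, and the DNA it retains is sequenced. The data described here are all 5395 binding events of ARF29 and all 4210 of ARF39, 9605 of the 177320 events deposited for 12 ARFs. Both proteins were tested on the same kind of input, genomic DNA of soybean leaf extracted with phenol and chloroform. Each has 1 library and no replicate, so differences between the lists have no replicate check. The study also holds a library of the GST-HALO tag without an ARF, not analysed here. Naked DNA carries no nucleosomes, so the events are binding in vitro and not occupancy in a soybean cell, and there is no cell type to check.

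ARFs bind short auxin response elements that contain the letters TGTC, through a B3-type DNA-binding domain. They can dimerise, and a dimer contacts a pair of such elements in a defined orientation and spacing. Clade A ARFs are generally described as activators of auxin-responsive genes, and clade B ARFs as repressors. ARF29 was placed in clade A and ARF39 in clade B from the published maize phylogeny, as background knowledge that the labels do not give. The other 10 lists used below were placed in the same way: ARF4, ARF16, ARF18, ARF27 and ARF34 in clade A, and ARF7, ARF10, ARF14, ARF25 and ARF36 in clade B. No sequence of a bound site is given, since no genome of the files' build was at hand. Positions are printed on the chromosomes of the files, for which no source used here names a build, and the genes at them were not analysed here.

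An event is the single base at which the authors' event caller placed binding. Its strength is the authors' own value, ranked here as a percentile within its list because no common scale is stated. The strengths ran from 19.1 to 7391.2 in the ARF29 list, with a median of 31, and from 18.2 to 12724 in the ARF39 list, with a median of 40. The depth of either library is unknown, so an event missing from a list may only have fallen short of its calling threshold. Intervals of shares below are Wilson 95% intervals and cover counting error only.

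Most events of each protein were found for that protein and not for the other. An event was shared when an event of the other list lay within 100 bp. For ARF29, 1174 events were shared and 4221 were not, a shared percentage of 21.8% (20.7% to 22.9%). For ARF39, 1185 events were shared and 3025 were not, a shared percentage of 28.1% (26.8% to 29.5%). Events of ARF29 occupied 7.41% and events of ARF39 5.73% of the 71895 sites made by merging the events of all 12 lists. Taking events that were each other's nearest gave 1156 one-to-one shared pairs. A further 18 ARF29 events and 29 ARF39 events had a neighbour that was already paired more closely, and 42 ARF29 events had at least 2 ARF39 events in reach.

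The distance of 100 bp fell in a sparsely filled range. The nearest ARF39 event lay 81 to 100 bp away for 13 ARF29 events and over 100 and up to 200 bp away for 23. The farthest pair counted as shared lay 99 bp apart on chromosome 6, with the ARF29 event at 27756704 and the ARF39 event at 27756605. The closest pair left out lay just past the limit on chromosome 20, at 8256942 for ARF29 and 8256841 for ARF39. The median distance from an ARF29-only event to the nearest ARF39 event was 76.4 kb. From an ARF39-only event to the nearest ARF29 event it was 62.9 kb. The distances that lists of these lengths would give by chance were not determined. Whether exclusive events lay farther from the other protein than by chance was therefore not tested.

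These lists were chosen by a measured value: ARF29 and ARF39 have a higher Jaccard index (shared events over all events of both lists) than ARF29 and ARF34, both of clade A. That order depended on the lengths of the lists. The index was 0.140 with ARF39 and 0.113 with ARF34, whose list holds 35715 events. Events of ARF34 nevertheless lay at 74.96% of the ARF29 events (73.8% to 76.1%), against the 21.8% with an ARF39 event. Over all sites, ARF34 had an event at 47.9% and ARF39 at 5.73%. With the 4210 strongest events of each list, the index of ARF29 was 0.145 with ARF39 and 0.176 with ARF34. At that equal length its index was highest with ARF4 (0.290) and ARF27 (0.280), and between 0.082 (ARF7) and 0.117 (ARF25) with the other clade B lists. For ARF39 at equal length, the index was 0.430 with ARF36, 0.428 with ARF14 and 0.322 with ARF25, and 0.067 with ARF34. Of the ARF29 events, 80.3% lay at an ARF4 event, the highest share of any list (26.6% of all sites). Of the ARF39 events, 93.1% lay at an ARF36 event (30.6% of all sites), 87.4% at an ARF25 event (25.8%) and 84.2% at an ARF14 event (12.9%).

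At shared sites the events of ARF29 and ARF39 were most often exactly 2 bp apart. Of the 1156 pairs, 346 (29.9%) had this distance. The next most frequent distance was 1 bp, with 75 pairs (6.49%), and 51 pairs (4.41%) had both events on the same base. The displacement had no preferred direction along the chromosome: ARF29 lay 2 bp above ARF39 at 176 pairs and 2 bp below it at 170. Over all pairs the ARF29 event had the higher coordinate at 572 and the lower at 533. The median distance was 6 bp, 62.7% of the pairs lay within 10 bp and 5.19% lay more than 50 bp apart. A smaller group stood 11 bp apart, 44 pairs (3.81%), against 14 pairs at 12 bp.

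**Figure D1:**
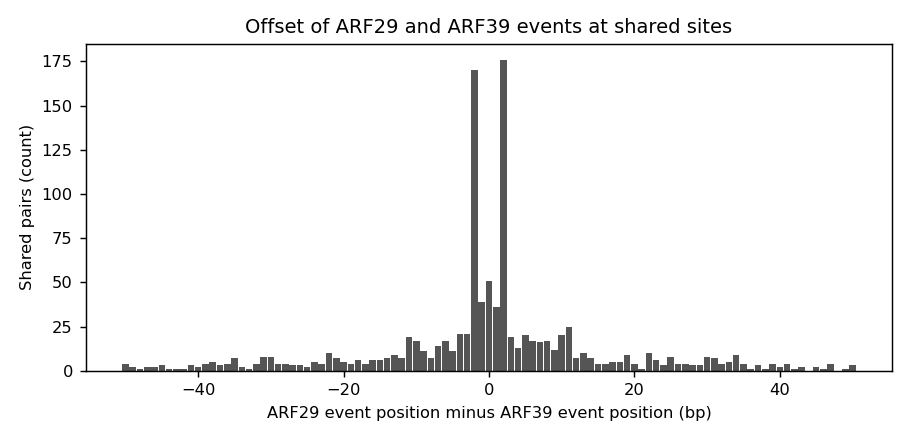
Number of one-to-one shared pairs (y axis) at each offset of the ARF29 event from the ARF39 event in bp (x axis, shown from -50 to 50). The bars at -2 bp (170 pairs) and 2 bp (176 pairs) stand well above all others, and 51 pairs have an offset of 0.

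The 2 bp recurred when the distances of most other lists from ARF29 and from ARF39 were compared. The preferred distance, the one found most often among the one-to-one pairs of a list with ARF29, was 4 bp for ARF4, ARF16 and ARF18, 6 bp for ARF27 and 3 bp for ARF34. Among clade B lists it was 1 bp for ARF7, ARF14 and ARF36, 2 bp for ARF25 and 3 bp for ARF10. The preferred distance from ARF39 was 2 bp larger than that from ARF29 for 8 of the 10 lists, with 6 bp for ARF16 and 8 bp for ARF27, for example. The exceptions were ARF7, at 1 bp from both, and ARF25, at 2 bp from ARF29 and 1 bp from ARF39. For ARF25 a second distance was nearly as frequent from ARF29, 3 bp (15.7% of the pairs, against 18.4% at 2 bp). From ARF39 its second distance was 2 bp (9.62%, against 13.8% at 1 bp). These preferences were sharpest for ARF18 and ARF16 with ARF29 (42.1% and 41.3% of the pairs) and for ARF14 and ARF36 with ARF39 (34.4% and 32.8%). They were weakest for ARF34 and ARF7 with ARF39 (5.95% and 6.63%).

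The files give no strand, so each pair 2 bp apart was turned to run from the ARF39 event at 0 to the ARF29 event at 2, and the events of the other lists were placed on that axis. For 9 of the 10 lists the commonest position lay on the ARF29 side. It was 3 for ARF14 (68.6% of its 303 events there) and ARF36 (62.2% of 315), and also for ARF7, without a clear peak (4.32% of 278, against 3.96% at 0). It was 5 for ARF10 (65.8% of 281) and ARF34 (10.6% of 274). It was 6 for ARF18 (58.0% of 88), ARF16 (52.8% of 248) and ARF4 (14.3% of 308), and 8 for ARF27 (35.3% of 266). ARF25 was the exception, at -1 (30.6% of 327). Counting all positions, ARF7 events lay below 0 (48.9%) more often than above 2 (43.9%). ARF34 events lay above 2 in 51.8% and below 0 in 41.2%, and ARF4 events in 55.8% and 37.3%. The commonest positions of the clade A lists (5 to 8) and of the clade B lists (-1 to 5) met at 5. The event caller named in the titles of the lists, GEM, can use sequence motifs when it places events. No source used here says whether it did so for these lists, and its part in the preferred distances was not tested.

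**Figure D2:**
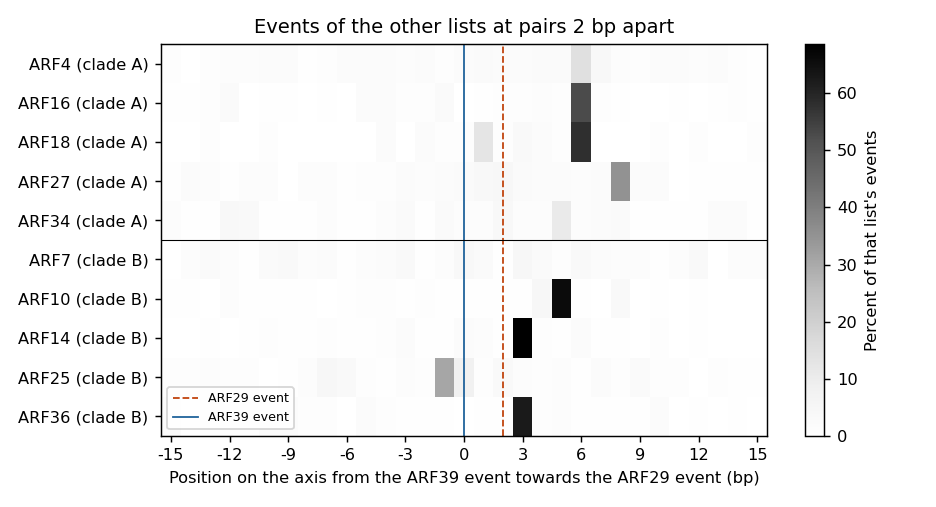
Percent of each list's events (grey scale) at each position in bp (x axis) along the axis from the ARF39 event at 0 (solid line) to the ARF29 event at 2 (dashed line), for the 346 pairs 2 bp apart. Each row is a list, with clade A above and clade B below the black line. Single dark cells mark the preferred positions, such as 6 for ARF16, 3 for ARF14 and -1 for ARF25.

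Pairs at different distances differed in strength. At 0 to 1 bp, 126 pairs had a median percentile of 95.3 in the ARF29 list and 81.6 in the ARF39 list. At 2 bp these medians were 74.8 and 63.1, at 3 to 10 bp (253 pairs) they were higher again, 84.4 and 78.5, at 11 to 50 bp (371 pairs) they were 70.6 and 55.9, and at 51 to 100 bp (60 pairs) 52.7 and 43.2, in that order of proteins. The 44 pairs at exactly 11 bp went another way, with a median percentile of 38.2 in the ARF29 list and 68.1 in the ARF39 list. At least 4 of the 5 other clade A lists had an event at 11 of them, against 61.8% of the pairs at 2 bp. At least 4 of the 5 other clade B lists had one at 34 (77.3%), against 83.2% of the pairs at 2 bp. The 11 bp group was singled out after its values were seen.

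The ranks of strength of ARF29 and ARF39 rose together at shared sites, loosely. Across the 1156 pairs, which share 2 libraries and are not independent replicates, Spearman's rho was 0.47. It was 0.71 for pairs 0 to 1 bp apart, 0.43 at 2 bp, 0.59 at 3 to 10 bp, 0.26 at 11 to 50 bp and 0.12 at 51 to 100 bp. In 599 pairs (51.8%) both events were at or above the median of their list, in 165 both were below, in 240 ARF29 alone was above and in 152 ARF39 alone was above. Both events stood in the top decile of their list at 137 pairs. The percentiles differed by more than 50 points at 164 pairs (14.2%), with ARF29 higher at 103 and ARF39 higher at 61. An event whose p value equals that of its strength with no opposing reads, at even odds, implies no control reads. Among such events rho was 0.21, and with ranks of the deposited q value over all pairs it was 0.32.

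**Figure D3:**
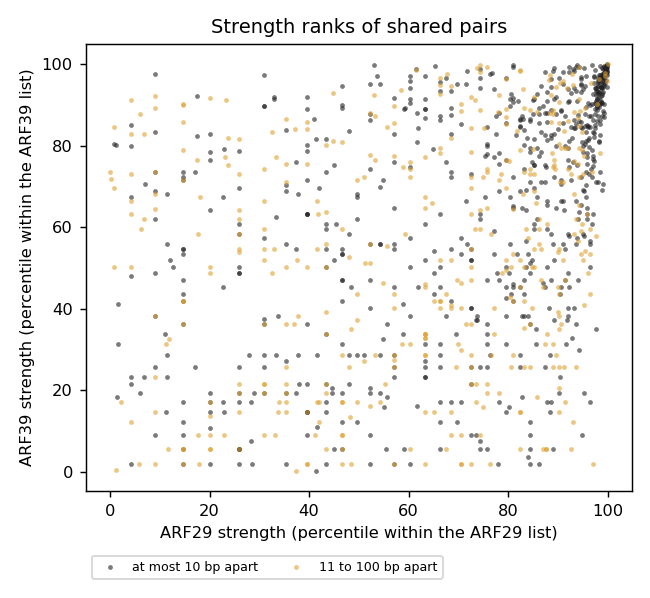
Strength of each of the 1156 shared pairs as a percentile within the ARF29 list (x axis) and within the ARF39 list (y axis). Dark points are pairs at most 10 bp apart and light points pairs 11 to 100 bp apart; the dark points crowd the upper right corner, where 137 pairs stand in the top decile of both lists.

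Shared events were stronger than exclusive ones in both lists, which describes the same libraries that defined them. In the ARF29 list the median percentile was 75.8 for shared and 43.4 for exclusive events, with median strengths of 42 and 29. In the ARF39 list it was 66.4 for shared and 44.5 for exclusive events, with median strengths of 54 and 36.3. By deciles of strength, the share of ARF29 events with an ARF39 event ran from 8.94% in the bottom decile to 23.7% in the eighth and 61.7% in the strongest (57.5% to 65.7%). The share of ARF39 events with an ARF29 event ran from 18.3% in the bottom decile to 34.4% in the eighth and 56.4% in the strongest (51.6% to 61.1%). In the weakest deciles the ARF39 events were more often shared than the ARF29 events, and in the top decile the intervals of the 2 lists overlapped.

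**Figure D4:**
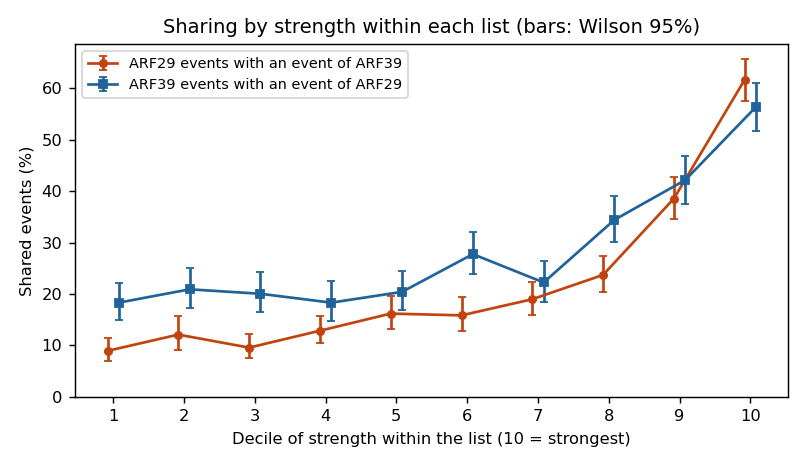
Percent of events shared (y axis) in each decile of strength within the list (x axis, 10 the strongest), for ARF29 events (circles) and ARF39 events (squares). Bars are Wilson 95% intervals, and the top decile reaches 61.7% for ARF29 and 56.4% for ARF39.

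Implied control reads moved with strength, in part by construction. The smallest -log10 p value listed was 5.9 for ARF29 and 5.52 for ARF39. The weakest deciles held strengths of 19.1 to 22 and of 18.2 to 21, in that order. Events this weak left little room for control reads, though part of those in the ARF29 list implied some. The share of events implying none was 24.7% in the top decile of ARF29 and 70.7% in the weakest. In ARF39 these shares were 26.4% and 96.8%. Among events implying none, sharing in the top decile was 59.4% for ARF29 and 66.7% for ARF39, and in the bottom decile 9.31% and 18.0%, so sharing also differed by strength without the events that imply control reads. Over all deciles, shared events implied none in 51.5% of cases and exclusive events in 59.9% for ARF29. For ARF39 these shares were 57.0% and 54.0%.

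At the 5 strongest shared pairs, between 5 and 10 of the 10 other lists had an event. On chromosome 20 the ARF29 event at 32738792 had a strength of 3421 and the ARF39 event at 32738794 a strength of 12724, the highest of its list, and 7 of the 10 other lists had an event there. On chromosome 12 the ARF29 event at 40628967 was the strongest of its list (7391.2), the ARF39 event at 40628933 had 3723.8, and 9 other lists had an event. At both positions the p value that could be read was far weaker than strengths of this size give without opposing reads. The -log10 p value was 0.24 of that maximum for ARF29 on chromosome 20 and 0.17 for ARF39 on chromosome 12. The other values, for ARF29 on chromosome 12 and for ARF39 on chromosome 20, stood at the cap of the files and give no ratio. Among the other lists, the share of that maximum was 0.26 for ARF16 at both positions and 0.24 for ARF27 on chromosome 20.

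The other leading pairs were closer to that maximum. On chromosome 13, the ARF29 event at 36539559 (strength 845) and the ARF39 event at 36539561 (875) reached it in full. Events of ARF4, ARF16, ARF18, ARF27 and ARF14 lay there, ARF14 being the single clade B list among them. The pairs on chromosome 14 (30944506 for ARF29, strength 889, and 30944508 for ARF39, strength 624) and chromosome 16 (6410880, strength 651.9, and 6410878, strength 633.7) carried events of all 10 other lists. Of these 5 pairs, 4 were 2 bp apart and that on chromosome 12 was 34 bp apart.

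The largest gap in favour of ARF29 was on chromosome 3, with a strength of 97 (percentile 97.0) at 39713826 for ARF29 and of 19 (1.90) at 39713795 for ARF39, where all 10 other lists had an event. The next were on chromosome 12 (5304760, strength 64 in ARF29 and 20 in ARF39) and chromosome 4 (3332946, strength 73 in ARF29 and 21 in ARF39). At the chromosome 4 pair, ARF4 stood at percentile 94.6, ARF16 at 84.1 and ARF27 at 81.2, and the clade B lists between 12.7 (ARF14) and 47.8 (ARF25). At the chromosome 3 pair ARF4 stood at 99.1 and ARF27 at 98.2 but ARF18 at 18.4, and the clade B lists ARF7 and ARF36 were also high, at 97.4 and 92.8.

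The largest gap in favour of ARF39 was on chromosome 6, with a strength of 22 (percentile 9.08) at 27222370 for ARF29 and of 325 (97.6) at 27222364 for ARF39. All 5 other clade B lists stood at percentile 98.4 or above there, ARF14 highest at 99.5, while ARF4 was at 40.2, ARF27 at 5.91 and ARF34 at 58.5. The next 2 lay on chromosome 1, both 11 bp apart. At 18031172 the strength was 21 for ARF29 and 140 for ARF39, and at 19912717 it was 20 for ARF29 and 96 for ARF39. ARF4 was the single other clade A list with an event at either, and all 5 other clade B lists had one. At 19912717 these ranged from percentile 51.1 (ARF25) and 54.3 (ARF7) to 95.3 (ARF36).

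The exclusive events were asked which of the other 10 ARFs they carried, a readout the split into shared and exclusive events did not use. The choice of ARF29 and ARF39 did use the overlap of ARF29 with ARF34, which is among these 10. ARF29-only events carried mainly clade A ARFs and ARF39-only events mainly clade B ARFs. ARF4 lay at 78.1% of the ARF29-only events and 20.5% of the ARF39-only events, and at 26.6% of all sites. ARF16 lay at 62.1% and 14.1% (22.4% of all sites), ARF27 at 56.3% and 15.8% (14% of all sites), ARF34 at 73.6% and 27.8% (47.9% of all sites) and ARF18 at 10.02% and 1.06% (1.5% of all sites), ARF29-only first. In clade B, ARF36 lay at 23.3% of the ARF29-only events and 94.8% of the ARF39-only events, and at 30.6% of all sites. ARF14 lay at 10.7% and 82.1% (12.9% of all sites), ARF25 at 28.3% and 85.1% (25.8% of all sites), ARF7 at 16.6% and 71.9% (28.3% of all sites) and ARF10 at 23.4% and 62.8% (16.8% of all sites), ARF29-only first again.

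The log2 ratio of these shares, ARF29-only over ARF39-only, averaged 2.11 ± 0.69 over the clade A lists and -2.02 ± 0.59 over the clade B lists (SD, n = 5 each). It was positive for 5 of 5 clade A lists and negative for 5 of 5 clade B lists, and the clades differed by 4.13 (exact permutation test, two-sided, 252 splits, p = 0.0079, the smallest this design allows, 0.0106 after Benjamini-Hochberg adjustment over 4 tests). Ratios ran from 1.40 (ARF34) to 3.24 (ARF18) in clade A and from -2.94 (ARF14) to -1.43 (ARF10) in clade B. Each list is a single library. Events that lack ARF39 were picked for that lack, and sharing within clades was known from these data, so the test is no independent support for it.

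**Figure D5:**
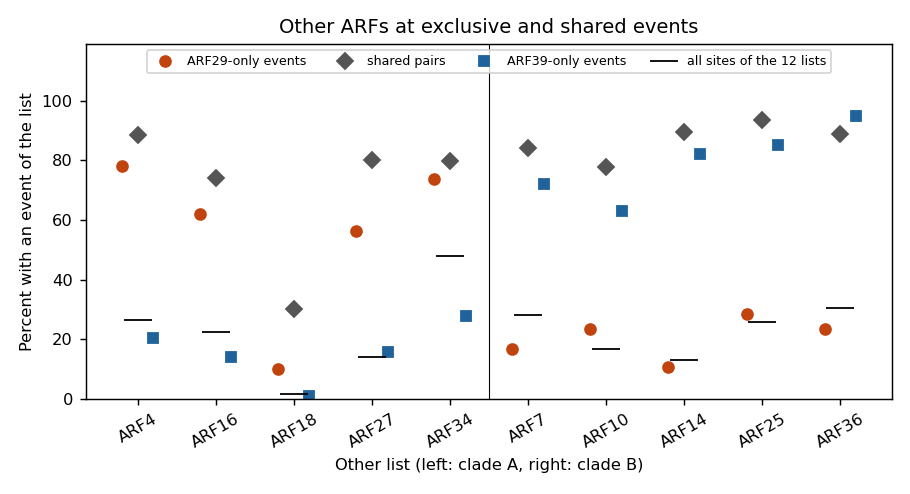
Percent of ARF29-only events (circles), shared pairs (diamonds) and ARF39-only events (squares) with an event of each other list (x axis) within 100 bp, with the percent of all merged sites as a dash. Circles lie above squares for all 5 clade A lists and below them for all 5 clade B lists, and the diamonds exceed the dash in every list.

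Shared pairs carried ARFs of both clades. They were picked for an event of each clade, and exclusive events for the lack of one, so this is no independent support for sharing across clades. At a pair, a list counted within 100 bp of either event, and at an exclusive event only within 100 bp of that event. Shared events were also the stronger ones. The median number of other lists was 9 of 10 at shared pairs, against 4 at ARF29-only and 5 at ARF39-only events. All 10 other ARFs had an event at 235 pairs (20.3%), against 29 ARF29-only events (0.69%) and 14 ARF39-only events (0.46%). The share of all merged sites with such sets of lists was not determined, here or for the sets counted below. ARF25 lay at 93.3% of the pairs, ARF14 at 89.4%, ARF36 at 88.8%, ARF4 at 88.5%, ARF7 at 84.0%, ARF27 at 80.02%, ARF34 at 79.8%, ARF10 at 77.8%, ARF16 at 74.0% and ARF18 at 30.3%. ARF36 was the single list found less often at shared pairs than at ARF39-only events (94.8%). At least 4 other lists of each clade were present at 649 pairs (56.1%). At least 4 of clade B with at most 1 of clade A were present at 89, and the reverse at 10. These counts are not on equal terms. Clade A includes the short ARF18 list (1106 events), while the shortest of the other clade B lists, ARF14, holds 9542.

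The clade A lists averaged 70.5% ± 23.1 and the clade B lists 86.7% ± 6.0 of the shared pairs (SD, n = 5 each). The difference of -16.2 percentage points did not pass the threshold (exact permutation test, two-sided, 252 splits, p = 0.095, adjusted over 4 tests 0.095). Single lists decided this: it was -6.12 without ARF18 (p = 0.19), -20.7 without ARF4 (p = 0.048) and -18.4 without ARF10 (p = 0.032), by the same exact test.

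The 89 shared pairs with mainly clade B partners were weak for ARF29, with a median percentile of 35.4 in its list and 61.9 in that of ARF39. The 10 with mainly clade A partners had medians of 90.01 for ARF29 and 42.1 for ARF39. Where all 10 other lists had an event, the medians were 92.3 for ARF29 and 85.8 for ARF39. There 43.0% of the ARF29 events and 42.6% of the ARF39 events implied no control reads, against 64.6% and 70.5% at the 305 pairs with every other list but ARF18. The part of control reads in these ranks was not tested.

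Shared pairs without any other ARF were rare, 4 in all. The strongest lay on chromosome 19 at 36815160 for ARF29 (strength 53) and 36815155 for ARF39 (37). The next were on chromosome 2 at 40677803 for ARF29 (36) and 40677801 for ARF39 (30), and on chromosome 11 at 4375627 for ARF29 (26.9) and 4375649 for ARF39 (24). The -log10 p values of the first were 0.49 and 0.55 of the maximum for their strengths.

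At shared pairs, the ranks of each other ARF followed the protein of its own clade more closely. Across pairs, the rho of the clade A lists was 0.47 (ARF16) to 0.72 (ARF4) with ARF29 and 0.24 (ARF34) to 0.54 (ARF18) with ARF39. The rho of the clade B lists was 0.21 (ARF36) to 0.40 (ARF14) with ARF29 and 0.46 (ARF7) to 0.73 (ARF14) with ARF39. The difference, rho with ARF29 minus rho with ARF39, averaged 0.24 ± 0.09 in clade A and -0.25 ± 0.12 in clade B (SD, n = 5 each). It was positive for 5 of 5 and negative for 5 of 5 lists (exact permutation test, two-sided, 252 splits, p = 0.0079, the smallest possible, adjusted over 4 tests 0.0106). The sharpest contrast was that of ARF36, with rho 0.21 with ARF29 and 0.62 with ARF39. Each list is a single library, and the pairs were picked for sharing. The clades and tests were chosen with earlier results of these data known, so the test is no independent support for a clade difference.

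Events of the other lists also lay nearer, on average, to the protein of their own clade. The mean distance to the ARF29 event minus that to the ARF39 event was -1.91 ± 0.34 bp over clade A lists and 2.15 ± 0.58 bp over clade B lists (SD, n = 5 each; exact permutation test, two-sided, 252 splits, p = 0.0079, the smallest possible, adjusted over 4 tests 0.0106). ARF16 events, for example, lay 13.6 bp from the ARF29 event and 16.1 bp from the ARF39 event on average. ARF36 events lay 14.6 bp from the ARF29 event and 11.6 bp from the ARF39 event. With the median over pairs in place of the mean, the averages were -1.4 bp in clade A and 0 bp in clade B, a difference that did not pass the threshold (exact permutation p = 0.079). Without the pairs 2 bp apart, at which most lists of both clades stood on the ARF29 side, the averages of the mean difference were -2.41 bp and 3.31 bp (exact permutation p = 0.0079). The limits given for the rank test hold for these position tests too.

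Many exclusive events had no ARF of the other clade nearby, and a few had nearly all of them. Of the 4221 ARF29-only events, 2493 (59.1%) carried none of the 5 other clade B lists, 466 (11.04%) carried at least 4 and 288 (6.82%) carried no other ARF at all. Of the 3025 ARF39-only events, 1874 (62.0%) carried none of the 5 other clade A lists, 190 (6.28%) carried at least 4 and 49 (1.62%) carried no other ARF. The share of all merged sites with such sets of lists was not determined. The 466 and the 190 are not on equal terms, since the clade A lists include the short ARF18 list (1106 events). The ARF29-only events with no other ARF were weak, with a median percentile of 20.1. Those of ARF39 had a median percentile of 43.6, and 30.6% of them implied no control reads, against 57.3% for those of ARF29.

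The strongest exclusive events were mostly strong in other lists as well. The strongest ARF29-only event, at 28347810 of chromosome 15 (strength 2955.3), had events of ARF16 (2398), ARF34 (2978.3) and ARF25 (430.5). The ARF29-only event at 19636780 of chromosome 15 (573.1) had events of all 10 other lists, and its nearest ARF39 event was 2351 bp away. The strongest ARF39-only event, at 16083986 of chromosome 11 (1787.7), also had an event of all 10 other lists, from a strength of 707.8 in ARF18 to 6444 in ARF4, and the nearest ARF29 event lay 293224 bp away. The -log10 p values were 0.28 of the maximum for the strength at 19636780 and 0.45 at 16083986, and the p value at 28347810 was too small to be compared with its maximum.

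Other leading exclusive events of ARF29 lay on chromosome 15 at 49411248 (strength 1426, all 5 other clade A lists and ARF14), on chromosome 14 at 33731196 (648.5, ARF27 alone) and on chromosome 5 at 22259853 (381.2, all 5 other clade A lists and 3 of clade B). Those of ARF39 lay on chromosome 15 at 7239532 (1661), on chromosome 9 at 39723282 (1075.4) and 49948177 (711) and on chromosome 8 at 5640171 (639), and all 5 other clade B lists had an event at each. Of the 5 clade A lists other than ARF29, 2 had an event at 7239532, 3 at 39723282 and 4 at 5640171. The event at 49948177 had no clade A list within 100 bp, reached the maximum -log10 p for its strength, and ranked at percentile 99.7 in ARF14 and ARF36.

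Both lists covered all 20 chromosomes in similar proportions. Counts per chromosome ran from 190 (chromosome 16) to 332 (chromosome 18) for ARF29 and from 155 (chromosome 16) to 269 (chromosome 19) for ARF39. Across the 20 chromosomes, which also differ in length, rho between the counts was 0.90. ARF29 had between 1.12 (chromosome 19) and 1.47 (chromosome 10) times as many events as ARF39. The share of ARF29 events that were shared was highest on chromosomes 2 (25.9%, 21.3% to 31.1%) and 7 (23.0%) and lowest on chromosomes 16 (15.8%, 11.3% to 21.6%) and 20 (16.9%, 12.7% to 22.0%). The same 4 chromosomes were at the ends for ARF39, with 33.6% on chromosome 2, 33% on chromosome 7, 19.4% on chromosome 16 and 22.3% on chromosome 20. The intervals of chromosomes 2 and 16 overlapped slightly for ARF29 and did not for ARF39, where they were 27.9% to 39.9% and 13.9% to 26.3%, with no correction for picking the extremes of 20.

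ARF39 events were more often in the chromosome middles than ARF29 events. The middle, from 25% to 75% of the span that events covered, held 39.8% of the ARF29 events (38.5% to 41.1%) and 44.6% of the ARF39 events (43.1% to 46.1%). By class this share was 37.8% for shared pairs (35.1% to 40.6%), 40.3% for ARF29-only events (38.8% to 41.8%) and 47.2% for ARF39-only events (45.5% to 49.0%). Each protein rests on 1 library, so these differences exceed counting error only and their spread between replicates is unknown.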

How the data were processed

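The authors deposited 1 GEM event list per ARF, made from reads handled with Trimmomatic 0.36 and Bowtie2, tools that the submitters' processing notes name. Each deposited list holds windows of 201 bp with the event at offset 100, an event strength given as a signal with no stated scaling, and −log10 p and −log10 q values capped at 999. Build, caller settings, filters and whether the lists were called against one common control are stated in no source used here. Read totals are unknown.

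Event positions were written 1-based. Strengths were ranked within each list. Shared events lay within 100 bp, and pairs were mutual nearest events. An event was read as implying no control reads where its −log10 p reached at least 0.98 of strength times the log10 of 2. The formula was inferred from the deposited values, and events with −log10 p above 290 were not read. Merged sites chained events of all lists within 100 bp. The middle of a chromosome refers to the span covered by events of all lists.

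The 4 tests over the 5 and 5 other lists were two-sided exact permutation tests, adjusted with the Benjamini-Hochberg method. All else is description. Named sites were the 5 strongest shared pairs, the 5 strongest exclusive events of each list, the 3 largest rank gaps each way, the 3 strongest pairs without another list, the pairs at the distance limit and the end chromosomes. Members, clades, rules and tests were chosen with earlier results of these data known. Alternatives were distances of 20, 50 and 200 bp, the median −log10 q, equal list lengths, no events with control reads, other measures and leaving out each list. The preferred distances, the turned axis and some alternatives were chosen after seeing the values. The functions were tested on simulated data. Tests ran in scipy 1.17.1 under Python 3.11.15, tables in pandas 2.3.3 with numpy 2.4.6, and figures in matplotlib 3.10.9.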

Additional observations from a re-analysis of the deposited data

Results flagged for a closer look

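Of 8 groups of 5 lists, 1 had an end value set apart from the rest: the percent of shared pairs with an ARF18 event, 30.3%, against 74.0% to 88.5% for the other clade A lists. Its gap was 0.750 of the range, over a limit of 0.710 that chance passes in about 1 group in 20. The ARF18 list is also the shortest, with 1106 events.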

How the results depend on the processing

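No paired analysis was possible because each ARF has 1 library. The most frequent distance of a pair was 2 bp under all 6 alternatives, which are not independent checks. Limits of 20, 50 and 200 bp keep the pairs 2 bp apart and could hardly move it. The other alternatives are subsets of the same events. Shared events numbered 593 (ARF29) and 608 (ARF39) at or above the median −log10 q, and 589 and 592 once events with implied control reads were left out, where fewer events were compared. The shared percentages of ARF29 and ARF39 were 20.4% and 26.5% at 50 bp, 16.3% and 21.1% at 20 bp, 25.2% and 25.4% with as many ARF29 as ARF39 events, and 18.8% and 25.7% once events with implied control reads were left out. The median distance was 2 bp at 20 bp and 3 bp for pairs at or above the 75th percentile in both lists. Pairs 2 bp apart made up 39.4% at 20 bp and 32.9% once events with implied control reads were left out. The Spearman rank correlation of strengths was 0.21 without those events and 0.32 for −log10 q. The index of ARF29 with ARF39 minus that with ARF34, 0.027, turned to -0.031 at equal lengths, -0.49 for the overlap coefficient and -53.2 percentage points for the share of ARF29 events. Position differences between clades (-4.06 bp) lost the call with medians (-1.4 bp). Leaving out 1 list gave 3.84 to 4.30 for the log2 ratio, -20.7 to -6.12 points for shared pairs (past the threshold without ARF4 or ARF10), -4.21 to -3.83 bp for position and 0.45 to 0.53 for rank. The cause of these shifts was not tested. The pairs named for lying at the distance limit change class by construction. The other 24 named sites stayed shared or exclusive at 50 and 200 bp, which was fixed in advance. The named pairs lay at most 34 bp apart, and no named exclusive event had the other protein nearer than 2351 bp. Unknown depth limits every statement that an event is missing.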
